A study of Mus musculus with 4 samples.

Results

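The regions described here are ChIP-seq peaks inside protein-coding genes, close to but not at a gene end. A peak was taken when its summit lay inside a RefSeq protein-coding gene span on an autosome, and more than 1 kb but at most 30 kb from the nearest end of any protein-coding gene. The rule used position only, and 2024 of 7412 autosomal peaks met it (27.3%, 95% exact interval 26.3 to 28.3), from a list of 7484. The chromatin came from mouse striatum of the genotype Gad2CrexThraGS, in which Cre follows Gad2, a gene of GABAergic neurons, and TRα1 from the Thra locus carries a GS tag. That tag joins protein G to a streptavidin-binding peptide and is held by IgG-coated magnetic beads. The series has 3 immunoprecipitated (IP) fractions and 1 input for which no antibody was used, and its title gives this genotype for all 4. No animal age, sex or number stands in the labels used here, and none of the 4 libraries is labelled as an IP from untagged animals. All values come from 1 peak list for the whole series, so no value per fraction and no spread between fractions can be given. The intervals below cover counting error within that list only, and no expression was measured that would check the tissue against its markers.

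TRα1 is a nuclear receptor for thyroid hormone that sits on chromatin with or without its ligand. It usually pairs with a retinoid X receptor, recruits corepressors when hormone is absent and coactivators when it is bound, and is the main thyroid hormone receptor of the brain. Its DNA elements are built from hexamers close to AGGTCA, and the best known pair, named DR4, holds them as a direct repeat with a fixed gap. Most neurons of the striatum are GABAergic projection neurons that respond to dopamine through G proteins and cAMP, with a minority of interneurons. A gene's span holds its introns and any alternative starts, so a peak inside a gene may lie at a second promoter, at an intronic element or elsewhere, and exons and introns were not separated here.

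Only a small share of these peaks had a summit in an annotated start window that was at hand. RefSeq start windows, from 250 bases before to 50 after an annotated start (GRCm38.p6), were at hand for 18 of the 19 autosomes. They gave a strand for 16457 of the 20665 autosomal coding genes (79.6%). A summit at a start without a window counts as outside, so the shares in windows may be too low. On those chromosomes, 55 of 1959 peaks (2.81%, exact interval 2.12 to 3.64) had their summit in such a window, against 29.4% of peaks within 1 kb of a gene end and 0.627% of those deeper than 30 kb. The windows made up 0.286% of the sequence open to these peaks. Their density was 41.4 peaks per Mb inside the windows (exact Poisson interval 31.2 to 53.8) and 4.10 outside (3.92 to 4.29). The 55 peaks had a median fold enrichment of 7.32, a median width of 251 bp and a median pileup of 21.6. They fell in 59 windows, 50 of them of the host gene itself, and in 48 windows the summit was upstream of the start.

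The upstream bases of 5 of those windows, taken from RefSeq, are shown because the summit lay in them. Rara, Vmp1 and Eprs had the strongest peaks with a summit upstream of the start, 1700008J07Rik held the DR4 pair, and Dhcr7 had its summit on a hexamer. These genes were chosen after their values were seen. Capitals mark AGGTCA or GGGTCA on either strand, so that TGACCT and TGACCC are the same hexamers on the opposite strand, and each run ends at the base before the start.
Rara (chr11:98939461-98939710, strand +): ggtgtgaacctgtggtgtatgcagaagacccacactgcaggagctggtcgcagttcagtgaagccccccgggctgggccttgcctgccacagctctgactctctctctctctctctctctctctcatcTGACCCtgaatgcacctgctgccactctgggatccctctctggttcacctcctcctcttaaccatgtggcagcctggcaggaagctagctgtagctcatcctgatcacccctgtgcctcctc
Vmp1 (chr11:86671182-86671431, strand −): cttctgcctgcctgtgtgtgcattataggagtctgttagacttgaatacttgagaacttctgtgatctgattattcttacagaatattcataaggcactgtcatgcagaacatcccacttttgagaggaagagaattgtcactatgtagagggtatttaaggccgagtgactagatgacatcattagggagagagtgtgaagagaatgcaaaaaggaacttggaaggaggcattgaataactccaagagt
Eprs (chr1:185362794-185363043, strand +): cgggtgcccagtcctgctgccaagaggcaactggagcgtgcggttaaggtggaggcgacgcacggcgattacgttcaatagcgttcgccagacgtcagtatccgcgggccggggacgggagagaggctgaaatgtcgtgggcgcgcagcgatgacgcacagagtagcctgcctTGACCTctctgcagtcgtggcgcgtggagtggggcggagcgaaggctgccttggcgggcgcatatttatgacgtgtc
1700008J07Rik (chr7:127512870-127513119, strand −): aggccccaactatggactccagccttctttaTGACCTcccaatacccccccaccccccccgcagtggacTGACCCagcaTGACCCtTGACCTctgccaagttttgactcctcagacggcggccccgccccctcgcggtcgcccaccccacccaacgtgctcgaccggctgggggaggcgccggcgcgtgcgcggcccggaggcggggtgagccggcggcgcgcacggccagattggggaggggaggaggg
Dhcr7 (chr7:143829964-143830213, strand +): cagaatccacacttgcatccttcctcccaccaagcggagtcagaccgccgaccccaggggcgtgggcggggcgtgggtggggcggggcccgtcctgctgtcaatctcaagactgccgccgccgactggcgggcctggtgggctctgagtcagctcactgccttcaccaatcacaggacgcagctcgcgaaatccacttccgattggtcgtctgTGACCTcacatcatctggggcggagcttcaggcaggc

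Rara encodes the retinoic acid receptor alpha, and its peak, which also lay in the predicted gene Gm46294, had a fold of 18.6 with the summit at −138. The single hexamer of that window began at −122. Eprs, the glutamyl-prolyl-tRNA synthetase gene, had a fold of 17.5 with the summit at −84 and a hexamer from −77. Vmp1, which encodes a membrane protein of autophagy, had a fold of 18.3 and no such hexamer in the 250 bases. Dhcr7 encodes the last enzyme of cholesterol synthesis, and its hexamer began at −37 with the summit at −32, for a fold of 6.52. The 250 bases shown for 1700008J07Rik, inside the chromatin remodeller gene Srcap, held 4 hexamers, and its window held the only DR4 among the 59 windows, for a fold of 6.85.

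Across the 59 windows, AGGTCA was found in 12 (20.3%, exact interval 11.0 to 32.8) and GGGTCA in 16 (27.1%, 16.4 to 40.3). Both strands were searched, the windows of 1 gene can overlap, and a window may hold both hexamers. Among all 31396 autosomal start windows the shares were 16.3% and 13.8%. Either hexamer was present in 25 windows with a summit (42.4%, 29.6 to 55.9) and in 27.6% of all windows. DR4 was counted as either hexamer repeated in the same orientation 4 bases apart. It was found in 1 of 59 windows (1.69%, exact interval 0.0429 to 9.09), an interval that included the 0.0446% of all windows (14 of 31396). The interval for GGGTCA lay above the share in all windows and that for AGGTCA included it. The same held for the 429 windows with a summit within 1 kb of a gene end, with GGGTCA in 20.7% (17.0 to 24.9) and AGGTCA in 17.5% (14.01 to 21.4). Base composition was not matched. A match gives letters in the window and does not show that a receptor was bound there.

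In width, pileup and fold the intragenic peaks were much like the other autosomal peaks. Pileup is the authors' scaled height of stacked fragments at the summit, and fold enrichment was deposited as a ratio. That ratio was read here as pileup over local background with 1 added to each. The median pileup was 21.6 both in the 2024 peaks (quartiles 16.9 and 31.0) and in the other 5388 (16.9 and 31.9), a difference of 0. The median fold was 6.91 in both groups, again a difference of 0, and among the intragenic peaks it ranged from 1.68 to 45.9. Median width was 264.5 bp (95% interval 259 to 270, range 174 to 1204) against 259 bp (256 to 262), a difference of 5.5 bp. Of the intragenic peaks, 472 had a fold of at least 10, or 23.3% (exact interval 21.5 to 25.2), where 24.0% of all autosomal peaks reached it. The share among the other autosomal peaks was 24.2% (23.1 to 25.4).

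The same held at the top of the list and within bands of pileup. Of the 100, 500 and 1000 strongest autosomal peaks, 24, 145 and 268 were intragenic peaks of this kind, or 24%, 29% and 26.8%, where their share of all autosomal peaks was 27.3%. Folds of 20 or more were found in 69 of them (3.41%) and in 3.64% of the others. The highest pileup was 131 among the intragenic peaks and 286 among the others. With a pileup below 20 the median widths were 214 and 212 bp in the intragenic and other peaks, from 20 to 40 they were 282.5 and 274.5 bp, and at 40 or above 377 and 373 bp. Wider peaks were taller, with a Spearman correlation of 0.634 across the 2024 peaks and 0.628 across the others. Width and pileup come from the same list, and why they rise together was not tested.

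**Figure D1:**
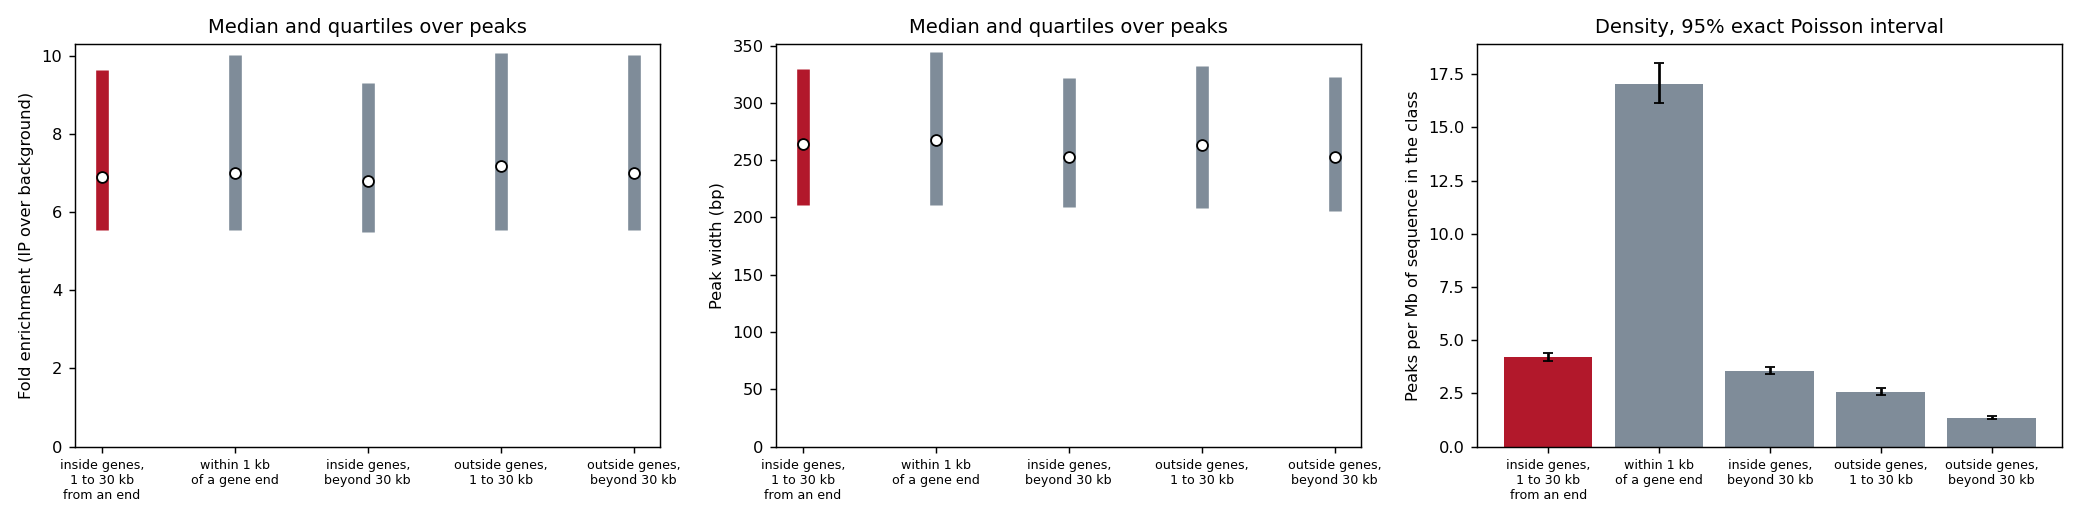
Autosomal peaks in 5 position classes. The left and middle panels give fold enrichment and peak width in bp (circles, medians; bars, quartiles), and the right panel gives peaks per Mb of sequence in each class with 95% exact Poisson intervals; the intragenic peaks from 1 to 30 kb (red) have a median fold of 6.91 and a density of 4.21 per Mb, between the 17.1 at gene ends and the 3.56 deeper inside genes.

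The classes differed in how densely they held peaks. Inside coding genes and between 1 and 30 kb of an end, the density over 481 Mb of autosomal sequence was 4.21 peaks per Mb (exact Poisson interval 4.03 to 4.40). The density was 17.1 per Mb (16.1 to 18.02) within 1 kb of gene ends, where 1275 peaks lay, and 3.56 (3.39 to 3.74) for the 1646 peaks deeper inside genes. At the same distance of 1 to 30 kb but outside genes, it was 2.59 per Mb (2.44 to 2.75) with 1103 peaks, and beyond 30 kb outside genes 1.37 (1.29 to 1.44) with 1364 peaks. Sequence inside genes thus held more peaks than sequence outside them at equal distance, by these intervals. Assembly gaps and sequence where reads cannot be placed were not taken out of the lengths, and the intervals do not cover this. Chromosome 11 was densest, with 178 of the intragenic peaks and 5.55 per Mb (4.76 to 6.43), and chromosome 1 sparsest, with 3.09 (2.54 to 3.73).

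Density fell over the first few kb and then levelled off, and fold did not follow it. From 1 to 2 kb there were 273 peaks and 7.51 per Mb (6.64 to 8.45), and from 2 to 5 kb 435 peaks and 4.77 per Mb (4.34 to 5.24). The next 3 intervals, from 5 to 10, 10 to 20 and 20 to 30 kb, held 3.80, 3.59 and 3.84 per Mb, and the intervals of these 3 overlapped. Median fold was 6.85, 7.01, 6.81, 6.91 and 6.99 in the 5 intervals of distance, and the share with a fold of at least 10 lay between 22.3% and 24.4%. The Spearman correlation of distance with fold across the 2024 peaks was 0.00762.

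The first few kb were denser on the side of the gene start. The RefSeq start windows give the orientation of the nearest end for 1596 of the 2024 peaks, and for 873 of these (54.7%, exact interval 52.2 to 57.2) that end was a start. Between 1 and 2 kb the density was 10.8 per Mb (9.13 to 12.6, 154 peaks) next to starts and 5.13 (4.03 to 6.44, 74 peaks) next to the other ends. From 2 to 5 kb it was 5.22 (4.50 to 6.02) against 3.89 (3.27 to 4.58), and from 5 to 10 kb 4.42 (3.83 to 5.08) against 3.04 (2.56 to 3.60). Beyond 10 kb the order turned, with 3.45 against 3.86 from 10 to 20 kb and 3.65 against 4.03 from 20 to 30 kb, and those intervals overlapped. Folds of at least 10 made up 22.3% (19.6 to 25.2) of the peaks nearest to starts and 24.5% (21.4 to 27.8) of those nearest to the other ends. Between 1 and 2 kb these shares were 25.3% (18.7 to 33.0) and 13.5% (6.68 to 23.5), and from 10 to 20 kb they were 19.1% (13.9 to 25.3) and 28.3% (22.4 to 34.6), so the order turned with distance while the intervals overlapped.

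**Figure D2:**
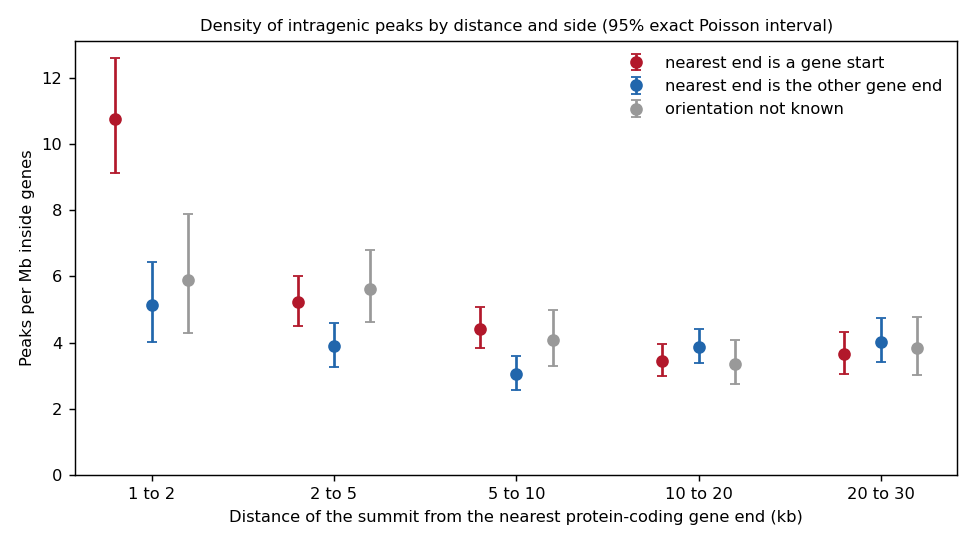
Peaks per Mb of sequence inside genes (y axis) by distance of the summit from the nearest protein-coding gene end in kb (x axis), for nearest ends that are starts (red), the other gene ends (blue) or of unknown orientation (grey), with 95% exact Poisson intervals. Starts stand at 10.8 per Mb against 5.13 between 1 and 2 kb, and the sides overlap beyond 10 kb.

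The 2024 peaks lay in 1687 genes, called host genes here, which is 8.16% of the 20665 autosomal protein-coding genes. For 91.8% of the peaks the nearest end belonged to a host, and 30 peaks lay inside more than 1 gene. Long genes hosted more often: 1.68% of genes from 2 to 10 kb held such a peak, 6.59% from 10 to 30 kb, 13.1% from 30 to 60 kb, 18.8% from 60 to 100 kb and 20.1% of longer ones. The median host was 54.8 kb long and the median autosomal coding gene 17.5 kb. A single peak was found in 1382 hosts (81.9%) and more than 1 in 305 (18.1%, exact interval 16.3 to 20.0005), with 4 or more in 14. Hosts had a peak within 1 kb of an end of their own in 171 cases (10.1%, 8.74 to 11.7), against 7.28% (6.89 to 7.68) of the 16641 genes with room for a peak but none. Hosts are the longer genes, and this pair of shares was not adjusted for length.

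Peaks of this kind had close neighbours a little more often than other autosomal peaks. Another peak lay within 5 kb of 15.5% of them (13.9 to 17.1), against 11.5% (10.7 to 12.4) of the others, and within 10 kb of 23.0% against 17.9%. Within 1 kb the shares were 3.31% and 3.12%, with overlapping intervals. The intragenic peaks were also denser, at 4.21 per Mb against 2.75 over the sequence of the other classes together. These shares were not adjusted for density and were not counted per class.

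The 25 strongest of the intragenic peaks, with folds of 45.9 to 25.7, were spread over 13 chromosomes and genes of many functions. The strongest lay in Wipi1, whose product binds phosphoinositides during autophagy, at chromosome 11, 109585170 to 109585595, with a pileup of 131. Rcn1, the gene of reticulocalbin 1 in the endoplasmic reticulum, followed with a fold of 43.6 at chromosome 2, 105394321 to 105394686. A peak of 38.1 lay in the overlapping genes Cers1, the neuronal ceramide synthase, and Gdf1, a growth factor of the TGF-β family, which share a transcript, and its nearest end was that of Upf1 at 2221 bp. A second peak in Cers1 and Gdf1, 1439 bp from the start of Cers1, had a fold of 12.9. Wfikkn1, which encodes a secreted protein with protease inhibitor domains, had 36.6.

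Several of the 25 lay in genes of membrane signalling and excitability. Rgs9, a regulator of G-protein signalling enriched in striatum, had a fold of 36.1 at 8765 bp from its start, and further peaks of 18.6 and 7.17 at 5903 and 21460 bp. Kcnq3, a potassium channel gene of the M-current family, had 35.4 at 16075 bp from an end. Adgrl1, the adhesion receptor latrophilin 1, had 29.5, and Prima1, which anchors acetylcholinesterase to neuronal membranes, had 30.3. Robo3, a guidance receptor of midline-crossing axons, had 32.2 with a pileup of 128, and Iglon5, a neuronal adhesion molecule, had 29.2. The guanine nucleotide exchange factor genes Def6 and Arhgef37 had 35.8 and 27.7.

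Others of the 25 belong to the cytoskeleton, to metabolism and to the clock. Dmtn, the actin-bundling dematin, had 32.4 with a pileup of 129, and the formin gene Inf2 had 29.0 at 1336 bp from its start. Alas1, the rate-limiting enzyme of heme synthesis, had 27.0, Mthfd1 of folate metabolism had 26.4 at 27182 bp, and Pipox, the pipecolic acid oxidase, had 25.7. Dbp, a circadian output factor of the PAR bZIP family that is also known as hormone responsive, had 30.4 inside the gene, although the nearest end was that of Sphk2 at 1579 bp. The peptidase gene Dpp9 had 31.6, the heat shock cofactor gene Dnajc27 29.99, the innate immune receptor gene Nod2 29.8 and the Golgi lipid-binding gene Plekha3 29.1. Rcl1, of ribosomal RNA processing, had 28.0, and Reep3, which shapes the endoplasmic reticulum, had 27.4 with Jmjd1c as its nearest end. The widths of these 25 peaks ran from 313 to 827 bp around a median of 450 bp. Their summits lay 1336 to 27182 bp from an end with a median of 9487 bp, and the nearest end was a start in 9, the other end in 11 and of unknown orientation in 5. Over all autosomes, 105 peaks were as strong as the last of them.

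**Figure D3:**
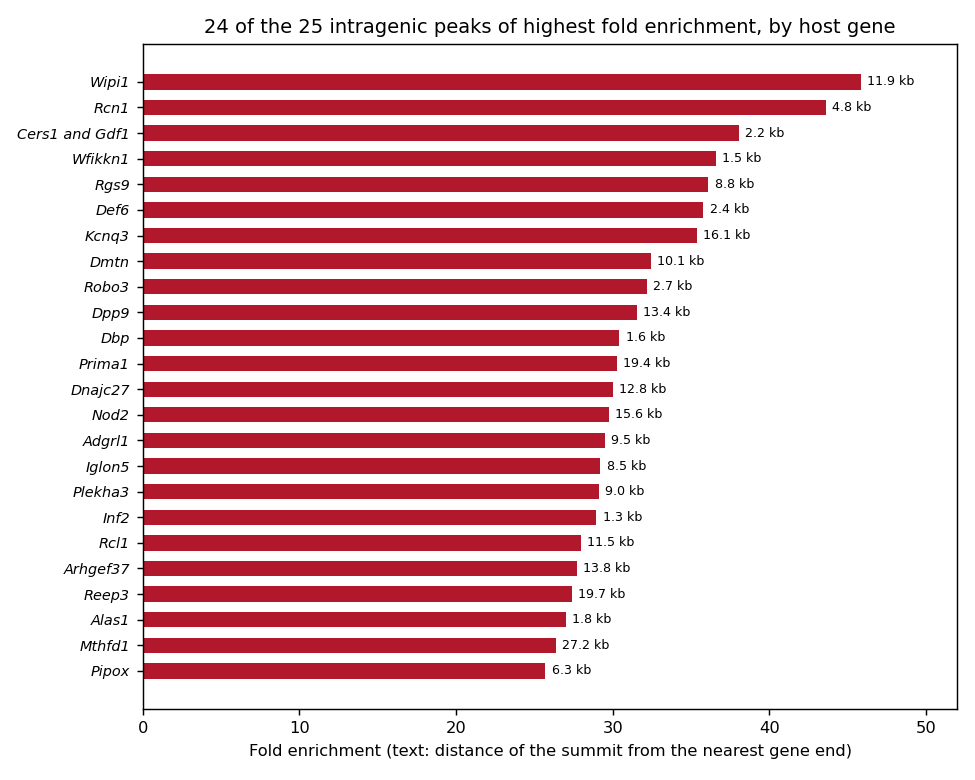
Fold enrichment (x axis) of 24 of the 25 strongest intragenic peaks by host gene (y axis), with the distance of each summit from the nearest protein-coding gene end beside the bar. Folds run from 45.9 in Wipi1 to 25.7 in Pipox, and distances from 1336 bp in Inf2 to 27182 bp in Mthfd1, with no order between them.

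Width singled out other genes. The widest of the 2024 peaks, 1204 bp, lay in Hacd2, an enzyme of very long chain fatty acid synthesis, with a fold of 23.3. It was followed by 1018 bp in Tmprss4, a membrane serine protease gene, with a fold of 5.79 only. Pcsk2, a prohormone convertase gene of neurons, had 922 bp and a fold of 9.09, Rab11fip5, a Rab11 effector gene, 919 bp and 9.41, and the histone demethylase gene Kdm6b 850 bp and 24.0. Wide peaks were therefore not all strong ones. The 5 highest pileups were in Wipi1, Dmtn, Robo3, Rcn1 and Wfikkn1, from 131 to 118, all among the 25 strongest by fold.

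Some genes held a series of peaks. Gng7, which encodes the G-protein gamma subunit of striatal dopamine and adenosine signalling, held most, with 7. Their folds were 15.6, 13.4, 12.05, 8.15, 7.17, 6.02 and 5.82, at 1324 to 29175 bp from its start, which was the nearest end for all 7. In the 58 kb of Gng7 open to such peaks this came to 121 per Mb, against 4.21 over all genes. Scrn1, the secernin 1 gene, held 6 of up to 9.72, and 2 of these also lay in the overlapping gene Wipf3. Asic1, the proton-gated sodium channel of neurons, held 5 within 31 kb, with folds of 21.4, 11.5, 11.3, 6.21 and 5.22. Kcnk1, a background potassium channel gene, held 5, with folds of 16.6, 14.6, 5.87, 3.97 and 3.54.

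Add2, the membrane skeleton protein beta adducin, held 5 of up to 10.1 and 3 more peaks deeper in the gene. Adcy5, the main adenylyl cyclase of striatal neurons, held 4, with folds of 16.9, 6.52, 6.197 and 3.96, and 5 more beyond 30 kb from any end. Fam102b held 5, none above 6.23, and the weakest, of 4.58, also lay in the overlapping gene Henmt1. Srebf2, the master factor of cholesterol synthesis, held 4 of 12.2, 6.52, 5.65 and 5.41, all nearest to its own start. Olfm2, an olfactomedin gene, held 4 of up to 14.97, and Pde2a, the cGMP-stimulated phosphodiesterase gene, 4 of up to 11.9. Sez6, a seizure-related membrane protein gene of dendrites, held 4 of up to 10.7, and Tmprss4 4 of up to 10.1. The Tmprss4 peaks of 10.1 and 5.03 also lay in the overlapping gene BC049352. Jcad and Ppp2r2c also held 4, each of up to 9.45, and came after these 12 because ties were ordered by highest fold. Peaks of 1 gene share its chromatin and are not independent of each other.

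**Figure D4:**
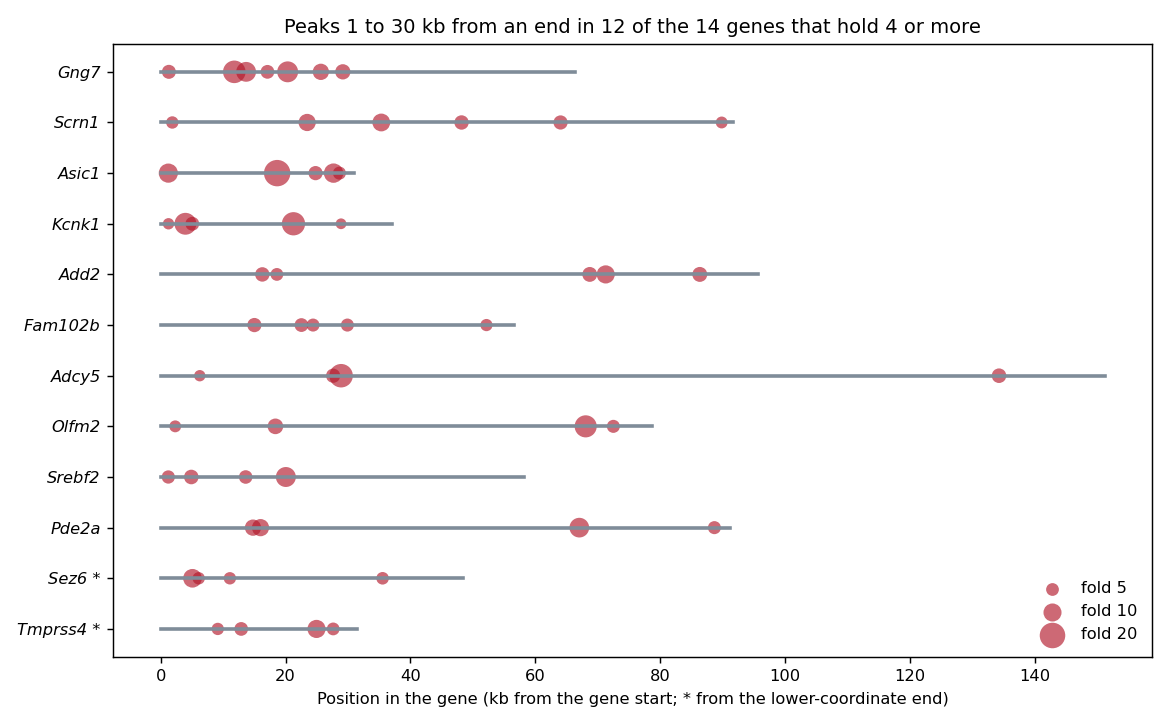
Positions of the intragenic peaks (circles, area by fold enrichment) along 12 of the 14 genes with 4 or more of them (grey lines, to scale; ties at 4 taken by highest fold), in kb from the gene start or, for the genes with an asterisk, from the lower-coordinate end. All 7 peaks of Gng7 lie within 29.2 kb of its start, and those of Adcy5 lie near both ends because peaks beyond 30 kb from an end are not drawn.

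Gene lists of 20 functions and cell types, with 533 genes on the autosomes, were counted next. Of these genes, 116 hosted an intragenic peak of this kind. Because long genes have more room, each list is given as its number of hosts and as peaks per Mb of its own sequence from 1 to 30 kb inside genes. Over all coding genes the share of hosts was 8.16% and the density 4.21 per Mb. Peaks shared by overlapping genes and genes in several lists count in each, and the Poisson intervals take peaks as independent, which those of 1 gene are not.

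Genes of striatal projection neurons had 28 peaks in 13 of 34 genes, or 24.7 per Mb (exact Poisson interval 16.4 to 35.6). Rgs9 with 36.1 and Rasgrp2, a Rap and Ras activator of striatal neurons, with 19.1 at 2326 bp from its start were the strongest, ahead of Adcy5 and Gng7. The other hosts were Arpp21, Bcl11b, Drd2, Foxp1, Gnal, Isl1, Ppp1r1b, Ptpn5 and Rasd2. Gng7 alone held 7 of the 28 peaks. The median fold of the 28 was 7.47, and 8 reached 10. Over all autosomal peaks the median fold was 6.91, and 24.0% reached 10.

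G-protein subunit and RGS genes, which carry signals from dopamine and other receptors, had 23 peaks in 11 of 38 genes (16.01 per Mb, 10.2 to 24.0). They share Gng7, Rgs9 and Gnal with the striatal list. Gnao1, the abundant inhibitory alpha subunit of brain, had 20.7 at 29298 bp from its start and 9.18 at 13867 bp. Gnal, the stimulatory alpha subunit of striatum, had 13.8 and 7.43, with an end of Chmp1b as the nearest for both. Kinase genes of calcium and cAMP signalling had 17 peaks in 8 of 28 genes (12.95 per Mb, 7.54 to 20.7). Their strongest was 19.1 in Camkk2, the calmodulin-dependent kinase kinase, 1092 bp from its start, and protein kinase C epsilon, Prkce, had 12.9.

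Phosphatase subunit genes had 11 peaks in 6 of 26 genes (11.2 per Mb, 5.57 to 19.97). The regulatory subunits of phosphatase 2A, Ppp2r5c with 24.4 at 27001 bp and Ppp2r5a with 18.9 at 5471 bp, were strongest. Ppp2r2c, an alternative regulatory subunit of phosphatase 2A, had 4 peaks of up to 9.45, and Ppp1r9b, the spine protein spinophilin, had 8.65.

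Circadian clock genes had 18 peaks in 12 of 24 genes, or 24.6 per Mb (14.6 to 38.8). Dbp with 30.4 was the strongest, and the median fold of the 18 was 5.87, against 6.91 over all autosomal peaks. A fold of 10 was reached by 2 of the 18 and by 24.0% of all autosomal peaks. Nr1d1, which encodes the repressor REV-ERBα, had a fold of 10.4 with a pileup of 29.1 at 2262 bp from its start, and a fold of 9.78 with a pileup of 47.9 at 1382 bp, so that the order of its peaks depends on the measure. Hlf, a relative of Dbp, had 7.79 and 5.83, and Npas2, a partner of BMAL1, had 7.22, 5.87 and 5.22 at 18655 to 24700 bp from its 3′ end. The other hosts were Arntl, Cry2, Csnk1d, Csnk1e, Nfil3, Per1, Rorb and Tef. With only peaks of −log10 q of at least 10, 6 clock genes were hosts in place of 12.

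Channel and receptor genes of neurons stood between 8.39 and 10.5 peaks per Mb. The list of voltage-gated potassium and sodium channels had 15 peaks in 13 of 36 genes (9.61 per Mb, 5.38 to 15.9). Besides Kcnq3, the related Kcnq5 had 16.6 at 1491 bp from its start, and Scn4b, a sodium channel beta subunit gene, had 10.7. Calcium channel and calcium release genes had 15 peaks in 10 of 25 (10.5 per Mb, 5.87 to 17.3), led by the ryanodine receptor gene Ryr3 with 16.4 and by Cacnb1, a beta subunit gene, with 15.9, 9.41 and 8.15. Cacng2, whose product stargazin guides AMPA receptors, had 10.7, and the T-type channel gene Cacna1h had 8.15. With an upper limit of 20 kb in place of 30, 5 of the 25 were hosts.

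Glutamate receptor and postsynaptic scaffold genes had 15 peaks in 11 of 34 (8.77 per Mb, 4.91 to 14.5). The NMDA receptor genes Grin2b and Grin2a had 16.9 and 13.999, 3913 and 2229 bp from an end of these long genes. The kainate receptor gene Grik5 had 9.45, and the scaffold gene Dlgap3, active in striatum, had 3 peaks of 7.97, 4.72 and 3.92. GABA genes had 8 peaks in 6 of 20 (8.39 per Mb, 3.62 to 16.5). Gabrg3, a GABA-A receptor subunit gene, had 23.1 at 2642 bp from its start, and Gabbr1, a GABA-B receptor gene, had 9.45. The interval of the GABA list included the 4.21 of all genes. With a −log10 q of at least 10, 6 of the glutamate list were hosts in place of 11.

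Trafficking genes were closer to the density of all genes. Myosin, kinesin and dynein genes had 15 peaks in 9 of 38 (7.44 per Mb, 4.16 to 12.3), with 20.8 in Kif5a, a neuronal kinesin heavy chain, 17.0 in Myo18a, 14.97 in Myo7a and 11.4 in Kif13b. Rab genes and their regulators had 10 in 7 of 39 (5.9995 per Mb, 2.88 to 11.0), with 14.97 in Rab6b, 10.7 in Rims4, 10.3 in Rabgap1l and 7.67 in Rab3b. Both intervals, for motors from 4.16 and for Rab genes from 2.88, included the 4.21 of all genes.

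Thyroid hormone targets in brain were at the density of all genes, with 5 peaks in 5 of 40 (4.29 per Mb, 1.39 to 10.02). They were Dbp, Kctd17 with 16.9, the calcium release channel gene Itpr1 with 7.96, Rasd2, which encodes the striatal GTPase Rhes, with 7.52, and Camk4. With an upper limit of 20 kb 3 were hosts, and with ends of genes of any type 9 were. Klf9 and Hr, both known to be induced by the hormone, had no peak of this kind. Receptor, coregulator and hormone supply genes had 6 peaks in 5 of 21 (7.54 per Mb, 2.77 to 16.4). Thra, which encodes the receptor itself, had 1, with a fold of 14.4 and a pileup of 42.3 at 5721 bp inside the gene, chromosome 11, 98746193 to 98746756. Thrb, the other receptor gene, had 1 of 4.90, and the coregulator genes Ncoa3 and Tbl1xr1 had highest folds of 7.82 and 6.50. Gad2, the GABA-synthesising enzyme, had a peak of 18.8 with a pileup of 55.4, 1456 bp from its start. Gad2 and Thra carry engineered alleles, and reads from those alleles were not separated from the others.

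Markers of other cells were counted in the same way. Astrocyte, oligodendrocyte and microglia lists had 1 host each, of 18, 19 and 18 genes: Gli3 with 11.3, Fa2h with 8.80, and Ctss, which encodes the protease cathepsin S, with 23.1. Their densities were 2.34, 2.35 and 3.35 per Mb, with intervals that reached from below 0.1 to above 13. Endothelial and mural markers had 2 of 20 (Emcn with 11.2 and Flt1 with 5.48), glutamatergic neuron markers 2 of 19 (Camk2a with 8.15 and Rorb with 5.87, 5.01 per Mb), and muscle and liver genes 1 of 27, Mb with 9.69. Interneuron genes had 3 of 28 (5.28 per Mb, 1.09 to 15.4), with 9.77 in Pvalb, the parvalbumin gene, 6.52 in Kcnc1 and 5.41 in Satb1. For all 7 of these lists the interval included the 4.21 of all genes, so a difference was not detectable at these counts. The lower limits were above 4.21 for the striatal, clock, G-protein, kinase, phosphatase, potassium and sodium channel, calcium channel and glutamate lists. These limits take peaks of 1 gene as independent, lists share genes, and the lists were chosen with earlier results of these data known. No enrichment of a list can therefore be drawn from them.

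**Figure D5:**
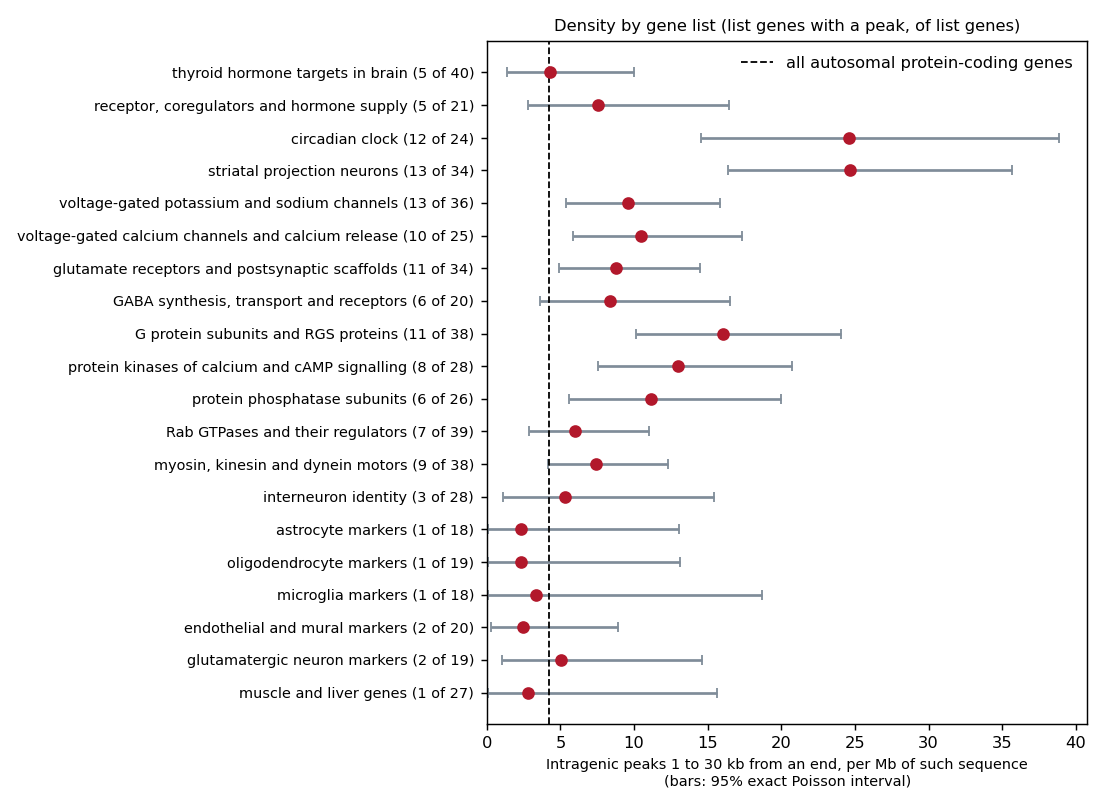
Peaks per Mb of sequence inside the genes of each list and from 1 to 30 kb of an end (x axis; points, with 95% exact Poisson intervals), with the number of host genes of all genes in the list beside its name. The dashed line is the 4.21 of all autosomal protein-coding genes; the striatal and clock lists stand highest at 24.7 and 24.6, and the hormone targets in brain stand at 4.29.

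A few peaks had features of another kind. Long non-coding RNA genes were present at fewer of these summits than in the other classes. Such a span covered 98 of 2024 (4.84%, exact interval 3.95 to 5.87), against 8.39% at gene ends and 7.47% deeper in genes. Outside genes it covered 18.2% within 30 kb and 20.2% beyond. How much of each class's own sequence lies in such spans was not counted. Small RNA genes overlapped 5 of the peaks at any base. Mir7008 overlapped a peak of 14.6 in Prkci, and Rn4.5s one of 10.7 in Gm40369. The transfer RNA genes n-TGgcc2, n-TAtgc9 and n-TRtcg5 overlapped peaks of 6.28, 6.197 and 4.66. Summits lay inside Rn4.5s and n-TGgcc2, but not inside Mir7008, n-TAtgc9 or n-TRtcg5. In 3 peaks the background was over 4 times the lowest of the list, 1.89. These were in Sfi1, with a pileup of 77.9 over a background of 46.0 and thus a fold of 1.68, in Duxf3, with 35.7 over 12.999, and in Adgrb3, with 42.3 over 10.001.

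The peaks nearest to the limits of the rule, on both sides, were the following. Just above 1 kb lay Slc25a33 and Cab39, both at 1005 bp, with folds of 11.0 and 5.87, and just at or below it Cadm2 at 1000 bp and Cd200r1 at 998 bp, with 11.4 and 4.85. Just within 30 kb lay Kat2b at 29994 bp and Parva at 29987 bp, with 15.8 and 7.17, and just beyond it Daam1 at 30007 bp and Gm50595 at 30018 bp, with 5.55 and 7.22.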

How the data were processed

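The libraries were grouped as IP or input from the labels. One deposited peak list was analysed. The submitters' processing notes name Bowtie2 2.3.4.2, MACS2 2.1.1.20160309.0, GRCm38 and mm10, but no roles or settings. Whether the IP fractions were pooled, and the depth of each library, are not given in the sources used here. Per the file headers, the authors deposited each peak's start, end, width, summit, pileup signal and fold enrichment (a ratio), and −log10 p-value and −log10 q-value. Background was recovered as (pileup + 1) / fold − 1, which assumes that 1 was added to both sides of the ratio.

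Genes, start windows and sequences came from RefSeq (GRCm38.p6). A strand was known for 16457 of 20665 genes, 79.6%, and the windows leave out 1 autosome. List symbols matched 533 genes of 540 symbols. Distances, densities per Mb of available sequence, exact binomial and Poisson intervals (95%) and order-statistic intervals of medians were computed with Python 3.11.15, pandas 2.3.3 and scipy 1.17.1, and tested on simulated data. With 1 list there is no replicate test, and PCR copies are not independent molecules. Named genes are hosts of the 25 strongest peaks, the 12 genes with most peaks (ties by highest fold), up to 4 per list, the 5 widest and 5 tallest peaks, those at the distance limits, and Thra, Thrb, Gad2, Hr and Klf9. A few genes that meet this rule are not reported here. The members and lists were chosen with earlier results of these data known. Alternatives changed the q-value minimum, the distance limits, the genes whose ends count, and the peaks or genes kept. No genome sequence was used here, so motifs were searched only in RefSeq start windows.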

Additional observations from a re-analysis of the deposited data

How the results depend on the processing

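The alternatives were 9 fixed ones and 1 added after seeing the data (without 1492 predicted genes). Over these, 112 of 130 values kept within the spread or within 1.5 times, and 18 moved. A turn in sign could be counted only for the difference in median width, which stayed from 0 to 7 bp. For the lists' numbers of hosts, 184 of 200 kept within 1.5 times. All 13 results and 20 lists kept without peaks of high background, with ends of the host gene only, with the whole peak inside the gene, and without predicted genes. The whole-peak setting could hardly change them, because summits lay more than 1 kb from an end and the widest peak was 1204 bp. Its kept values are therefore no sign of stability. When −log10 q had to reach 10, 1090 peaks in 968 genes were left, 12.2% of hosts had more than 1, and 43.3% of peaks had a fold of at least 10. Medians were then 307 bp in width, 30.05 in pileup and 9.22 in fold, with differences from the other peaks of −0.94 in pileup and −0.226 in fold. A stricter q keeps the more enriched peaks by its construction, and taller peaks were also wider in this list. The share of autosomal peaks was 30.7% with a lower limit of 500 bp, 23.6% with 2 kb, 22.5% with an upper limit of 20 kb, 33.8% with 50 kb, and 33.4% with ends of genes of any type. The share nearer to a start was 57.2% with 500 bp, and hosts with more than 1 peak were 14.5% with 20 kb, 22.0% with 50 kb and 22.8% with ends of any gene. Lists that moved with the stricter q were receptor and coregulators (3 hosts), motors (5), interneurons (1), endothelial and glutamatergic markers (1 each), beside those named above. Under other distance limits or gene ends, the astrocyte list moved to 0 hosts, the oligodendrocyte list to 0 or 2, and muscle and liver genes to 2. No paired analysis was possible because the series has 1 peak list, with no value per library. With 1 list, variation between fractions or animals cannot be given, and peaks below the caller's threshold were not seen.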
